A study of Mus musculus with 24 samples.

Results

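The genes described here encode the machinery that releases neurotransmitter from synaptic vesicles. They were 46 genes named by symbol and found in the deposited count table through their Ensembl identifiers, of 55471 genes in all. By role they fell into 14 synaptotagmins, 11 SNARE proteins and their regulators, 10 vesicle membrane proteins and synapsins with the clathrin adaptor AP180, and 11 Rab3 and active zone proteins.

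RNA of the hippocampus of 12 female C57BL/6 mice, 3 to 6 months old, had been sequenced, with 3 mice in each of 4 groups. CBP-ifKOs carried floxed Crebbp alleles and CaMKIIα-creERT2, a tamoxifen-dependent recombinase driven in excitatory forebrain neurons only, and made a truncated CBP (CREB binding protein, a transcriptional coactivator and lysine acetyltransferase) after recombination, whereas their control littermates lacked the recombinase. All 4 groups received 5 intragastric administrations of tamoxifen, and both genotypes were housed either in a standard cage (SC) or in environmental enrichment (EE), a large box with running wheels, tubing and toys. Interneurons and glia of CBP-ifKOs kept an intact Crebbp, and all cells of the tissue contributed to each value.

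Vesicles loaded with transmitter dock at the active zone, where RIM, Munc13, Bassoon and Piccolo proteins hold them near calcium channels and prepare them for fusion. The vesicle SNARE synaptobrevin (Vamp genes) zips together with syntaxin and SNAP25 of the plasma membrane, complexins clamp and assist this complex, and synaptotagmins trigger fusion when calcium enters. NSF then takes the used complexes apart, while synapsins tether the reserve of vesicles and Rab3 proteins mark vesicles for release. Principal neurons of the hippocampus use this machinery at the synapses between the dentate gyrus, CA3 and CA1.

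The control libraries held 26874015 to 27971488 counts and the CBP-ifKO libraries 28582210 to 37448388. No count of a CBP-ifKO library was odd, whereas 54.0% to 55.1% of the nonzero counts of the control libraries were. The cause of the even counts was not tested, and the counts were used as deposited. With the CBP-ifKO counts divided by 2, to totals of 14291105 to 18724194, 7, 12 and 20 of the 46 genes were called in the genotype comparisons in SC, in EE and averaged over housing, against 7, 11 and 19 as deposited. Levels are given as CPM, counts scaled to a library of 1000000 after multiplying each library total by its TMM factor (trimmed mean of M-values), which was 0.965 to 0.991 in control mice and 1.01 to 1.03 in CBP-ifKOs. A floor of 3 counts corresponded to 0.0801 to 0.112 per 1000000 counts of the unadjusted totals, a limit that covers counting error only. Crebbp, the targeted gene, had 69.6 to 81.9 CPM in the 6 control mice and 44.5 to 51.5 CPM in the 6 CBP-ifKOs, so the libraries followed their genotype labels. One library stood apart, since the markers of the choroid plexus, the epithelium that secretes cerebrospinal fluid, summed to 1272 CPM in replicate 1 of the control EE mice and to between 36.0 and 63.8 CPM in each of the other 11 mice.

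In control SC mice the release genes were far above the typical gene. Their median level per length was 32.9 RPKM (CPM divided by the gene length in kilobases), against 3.59 RPKM over all genes tested. Snap25 led with 384 ± 17.3 RPKM (SD, n = 3), followed by Cplx2 with 304 ± 2.77, Vamp2 with 289 ± 20.5, Cplx1 with 234 ± 18.4, Syt1 with 221 ± 2.12 and Rab3a with 204 ± 16.0. Vamp2 lay within its own spread of Cplx2, whereas Snap25 lay above both. The lowest levels were those of Syn3, the third synapsin, with 0.504 ± 0.177 RPKM, and Syt10 with 0.698 ± 0.402 RPKM. All 46 genes passed the expression filter in every comparison. RPKM was used only for levels between genes, and the values that follow are CPM of the same gene across mice.

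The first question was how loss of CBP in excitatory neurons altered these genes under each housing. In SC, 7 of the 46 genes fell in CBP-ifKOs and none rose (edgeR's quasi-likelihood test, Benjamini-Hochberg adjusted p-value below 0.05), whereas 4.02% of all genes tested fell and 1.51% rose. In EE, 11 fell and none rose, against 3.53% of all genes falling and 1.03% rising. The 7 genes of the SC comparison, Syt13, Syt17, Snap25, Nsf, Cplx2, Sv2c and Syn2, were all among the 11 of the EE comparison, which added Syt7, Doc2b, Syn1 and Unc13a. The SC and EE comparisons shared no mice. At an unadjusted p below 0.05 the counts were 17 of 46 in SC, against 20.5% of all genes, and 17 of 46 in EE, against 19.6%.

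With housing averaged in a fit over all 12 mice, 18 genes fell and 1 rose in CBP-ifKOs, while 10.3% of all genes fell and 6.64% rose. The 11 genes called in SC or EE were included, and the other 8 were Syt1, Syt5, Syt12, Syngr1, Rims1, Rims2, Bsn and Unc13b. Of the 46 genes, 39 had a negative log2 fold change, against 49.3% of all genes tested. The changes were mostly small, with a median log2 fold change of -0.10 over the 46 genes and 0.00 over all genes, and Sv2c, Syt17 and Cplx2 were the only called genes beyond -0.40. The median was -0.09 in SC and -0.11 in EE. Without TMM factors, 29 of the 46 genes had a negative value with housing averaged, 12 fell and 3 rose (Sv2a, Syt9 and Rims2), and the median was -0.033, while the median of all genes was 0.07, with 2937 of 4212 called genes higher in place of 1211 of 3082.

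Mouse by mouse, every CBP-ifKO was below every control mouse for 16 of the 46 genes in SC, where 13.8% of all genes showed this, and for 22 of the 46 in EE, where 13.9% did. Over all 12 mice, the 6 CBP-ifKOs lay below the 6 control mice for 12 genes, which were Syt1, Syt12, Syt13, Syt17, Snap25, Nsf, Cplx2, Syngr1, Sv2c, Syn1, Syn2 and Snap91, against 5.35% of all genes. For none of the 46 did every CBP-ifKO lie above every control mouse, and the all-gene share was not computed on this scale. These counts depended on the TMM factors, which raised each control level and lowered each CBP-ifKO level. With CPM on the unadjusted totals, a scaling tried after the data were seen, the CBP-ifKOs lay below for 12 genes in SC, 14 in EE and 9 over all 12 mice (Syt13, Syt17, Snap25, Nsf, Cplx2, Syngr1, Sv2c, Syn1 and Syn2), against 9.59%, 8.4% and 3.09% of all genes. They lay above for 3, 2 and 1 of the 46, with Sv2a in each, against 19.6%, 22% and 7.82% of all genes. Separate mice were the replicates, so the p-values cover the spread between animals of a group. In whole tissue, fewer cells that express a gene and less RNA of it per cell cannot be told apart.

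**Figure D1:**
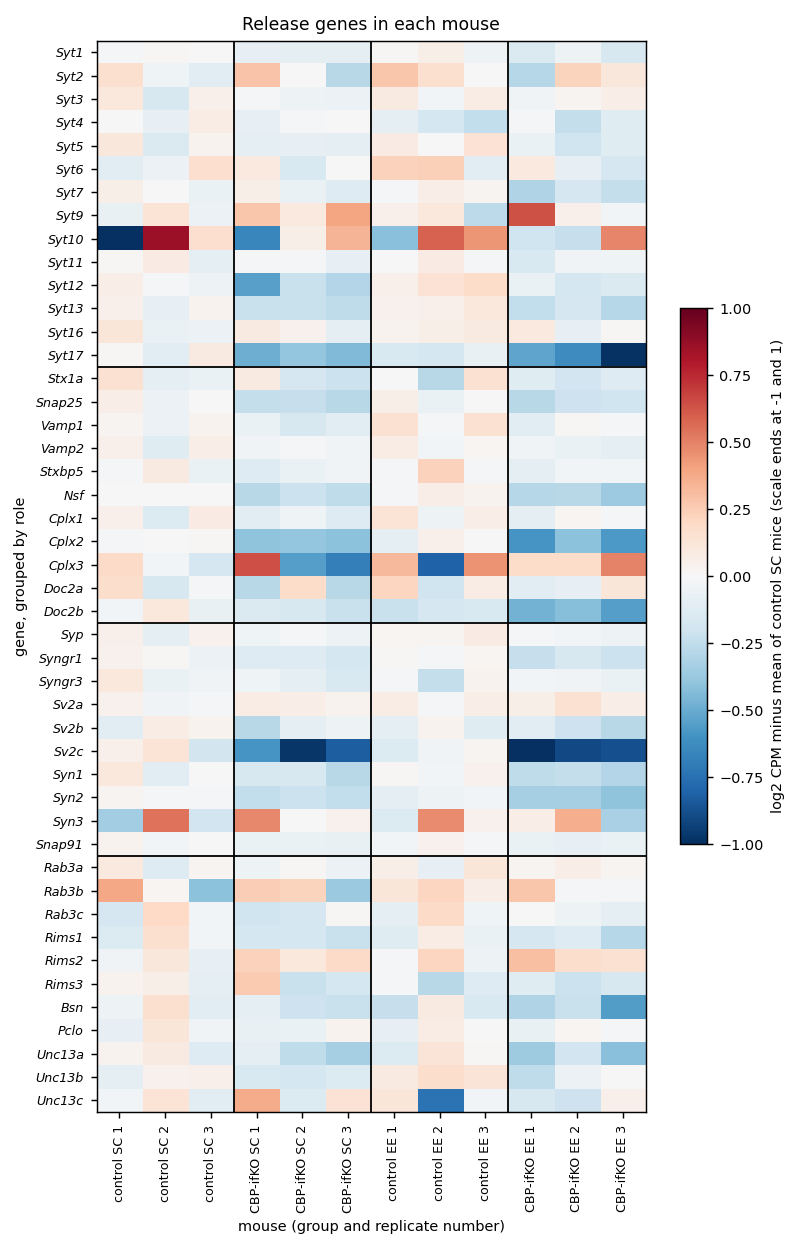
Colour gives log2 CPM of each of the 46 genes (rows, grouped by role) in each of the 12 mice (columns) after subtracting the mean of the 3 control SC mice, with blue for lower, red for higher and the scale ending at -1 and 1. Rows that are blue in both CBP-ifKO blocks include Sv2c, Syt17, Cplx2, Nsf, Syn2, Snap25, Syt13 and Unc13a, and the low-level genes Syt10, Cplx3 and Syn3 vary from mouse to mouse within groups.

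**Figure D2:**
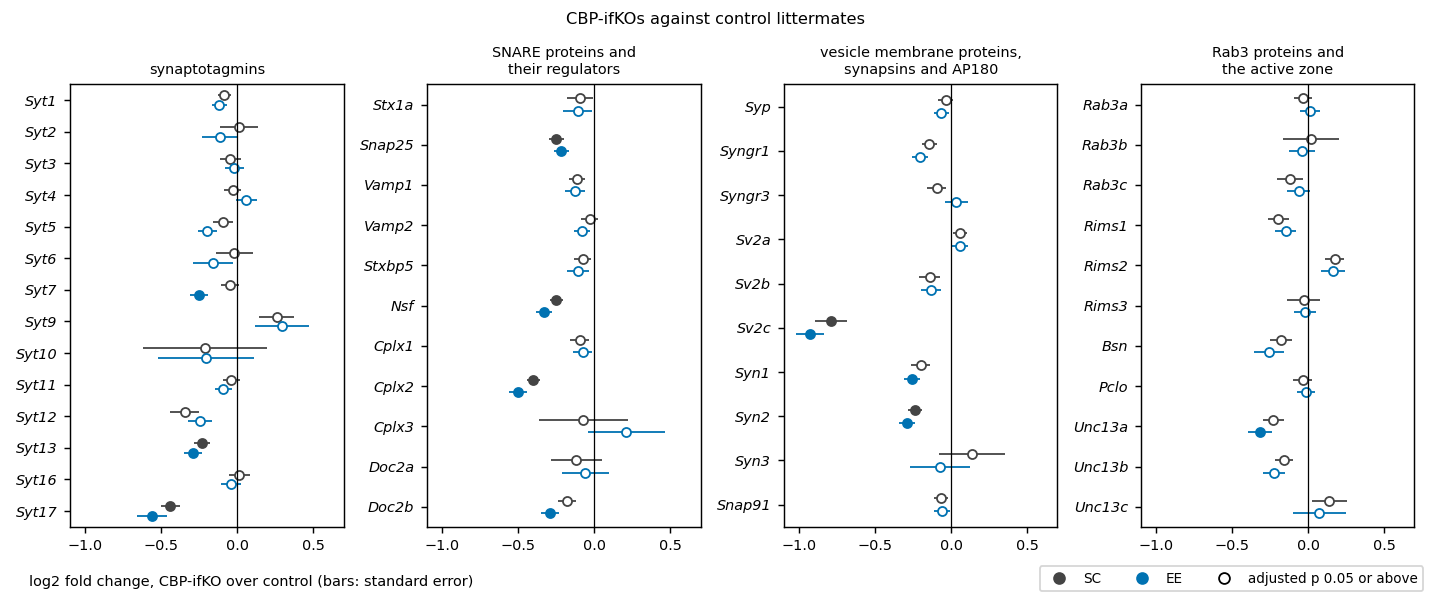
Points are log2 fold changes of CBP-ifKOs over control littermates for each gene in SC (grey) and in EE (blue), with bars of 1 standard error and filled points where the adjusted p-value of edgeR's quasi-likelihood test was below 0.05. All filled points lie left of 0, 7 for SC and 11 for EE, with Sv2c farthest out.

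Among the synaptotagmins, which bind calcium or help to traffic vesicles, 6 of 14 fell with housing averaged and none rose, with a median log2 fold change of -0.10. Syt17, an atypical family member, fell the most. Syt17 had 132, 121 and 139 CPM in the 3 control SC mice against 93.1, 100.1 and 96.1 in the CBP-ifKO SC mice, and 118, 116 and 124 CPM in control EE mice against 90.6, 84.3 and 66.0 in CBP-ifKO EE mice. Each CBP-ifKO was thus below each control mouse in both housings. Its log2 fold change averaged over housing was -0.51 (SE 0.06, adjusted p = 6.7e-05), so that it fell by 29.6%. Syt13, a family member that lacks the usual calcium-binding residues, had 253, 231 and 250.2 CPM in control SC mice, 209.9, 209 and 205 in CBP-ifKO SC mice, 253, 253 and 263 in control EE mice and 206, 217 and 201 in CBP-ifKO EE mice, again without overlap between genotypes. It fell by 16.9%, with a log2 fold change of -0.27 (SE 0.04, adjusted p = 0.000116).

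Syt12, another member without calcium binding, was low but separated the genotypes in both housings. Its levels were 20.8, 19.6 and 19.1 CPM in control SC mice, 13.6, 16.9 and 16.2 in CBP-ifKO SC mice, 20.5, 21.8 and 22.4 in control EE mice and 18.9, 17.5 and 17.9 in CBP-ifKO EE mice. The averaged log2 fold change was -0.30 (SE 0.06, adjusted p = 0.0028), whereas in SC alone it was -0.35 (SE 0.09, adjusted p = 0.0556), the largest change of a release gene there that missed the threshold. Syt7, a slow, high-affinity calcium sensor, was called in EE with a log2 fold change of -0.25 (SE 0.06, adjusted p = 0.0306) and not in SC, where it was -0.05 (SE 0.06, adjusted p = 0.706). Its levels were 437, 419 and 401 CPM in control SC mice, 435, 399 and 382 in CBP-ifKO SC mice, 415, 439 and 427 in control EE mice and 341, 374 and 354 in CBP-ifKO EE mice, so only the EE-housed groups were apart. The difference between the 2 housings, tested as an interaction, was -0.21 with an unadjusted p of 0.0182 and an adjusted p of 1 in the edgeR test.

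Syt1, the fast calcium sensor of excitatory terminals and the most abundant synaptotagmin, fell slightly. It had 1823, 1858 and 1837 CPM in control SC mice, 1738, 1727 and 1732 in CBP-ifKO SC mice, 1855, 1919 and 1779 in control EE mice and 1665, 1776 and 1646 in CBP-ifKO EE mice. The highest CBP-ifKO and the lowest control mouse were close, and with housing averaged it fell by 7.11%, a log2 fold change of -0.11 (SE 0.03, adjusted p = 0.0259). For Syt5, a close relative of Syt1, the levels were 143, 119 and 135 CPM in control SC, 123, 125 and 124 in CBP-ifKO SC, 139.8, 132 and 146 in control EE and 126, 115 and 121 in CBP-ifKO EE mice, with an averaged log2 fold change of -0.15 (SE 0.05, adjusted p = 0.0367) and overlap in SC. Without single mice the averaged calls of Syt1 and Syt5 were lost, with adjusted p-values up to 0.0664 and 0.106.

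Syt9, a fast sensor of the Syt1 kind, had the largest change that was not called in EE (0.29, SE 0.18, adjusted p = 0.404) and with housing averaged (0.27, SE 0.11, adjusted p = 0.119), on levels of 7.13 to 9.40 CPM in control mice and 8.39 to 13.3 CPM in CBP-ifKOs. The positive value in EE rested on 1 mouse, replicate 1 of the CBP-ifKOs, with 13.3 CPM, and was 0.05 without it. The remaining 7 synaptotagmins, Syt2, Syt3, Syt4, Syt6, Syt10, Syt11 and Syt16, had averaged log2 fold changes between -0.21 and 0.01, none called.

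Of the 11 SNARE proteins and regulators, 4 fell with housing averaged and none rose, with a median of -0.11. Cplx2 had the smallest p of the 46 genes in SC and with housing averaged, and Sv2c in EE. This complexin, the main one of hippocampal excitatory neurons, had 1487, 1492 and 1513 CPM in control SC mice and 1130.5, 1147 and 1125 in CBP-ifKO SC mice, and 1407, 1549.7 and 1495 CPM in control EE mice and 995, 1127 and 1004 in CBP-ifKO EE mice. The gap between the genotypes exceeded the range within each group in both housings. The log2 fold change was -0.40 (SE 0.04, adjusted p = 0.000447) in SC, -0.50 (SE 0.06, adjusted p = 0.00141) in EE and -0.46 (SE 0.04, adjusted p = 1.04e-06) averaged, so that it fell by 27.1%. Its paralog Cplx1, abundant in interneurons and hindbrain, ranged over 467 to 562 CPM in control mice and 468 to 519.6 CPM in CBP-ifKOs, with an averaged log2 fold change of -0.09 (SE 0.04, adjusted p = 0.192).

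Nsf, the ATPase that disassembles spent SNARE complexes, had 1399, 1389 and 1389 CPM in control SC mice, 1147, 1199 and 1170.4 in CBP-ifKO SC mice, 1373, 1461 and 1429 in control EE mice and 1142, 1150.0 and 1080.1 in CBP-ifKO EE mice. No CBP-ifKO reached the level of a control mouse, and the averaged log2 fold change was -0.29 (SE 0.03, adjusted p = 1.04e-05), so that it fell by 18.4%. Snap25, the plasma membrane SNARE with the highest level of the set, had 2729.7, 2495 and 2597 CPM in control SC mice, 2213, 2219 and 2155 in CBP-ifKO SC mice, 2708, 2486 and 2603 in control EE mice and 2146, 2261 and 2266 in CBP-ifKO EE mice. These groups did not overlap either, with an averaged log2 fold change of -0.24 (SE 0.03, adjusted p = 0.000147). The partners of Snap25 in the complex did not pass the test. Vamp2, the vesicle SNARE, ranged over 1012 to 1159 CPM in control mice and 1030.3 to 1090.5 CPM in CBP-ifKOs (-0.06, SE 0.04, adjusted p = 0.301), and Stx1a, the syntaxin, over 84.7 to 114 and 88.5 to 109 CPM (-0.11, SE 0.07, adjusted p = 0.346).

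Doc2b, a C2-domain calcium sensor for spontaneous release, had 137, 149 and 132 CPM in control SC mice, 126, 124 and 119 in CBP-ifKO SC mice, 119, 124 and 125 in control EE mice and 101, 104 and 94.9 in CBP-ifKO EE mice. The CBP-ifKO group was lower in each housing, but the SC-housed CBP-ifKOs overlapped with the EE-housed control mice. The genotype change was -0.18 (SE 0.06, adjusted p = 0.103) in SC, -0.29 (SE 0.06, adjusted p = 0.0179) in EE and -0.24 (SE 0.04, adjusted p = 0.000797) averaged. Vamp1, Stxbp5 (tomosyn, an inhibitor of SNARE assembly), Cplx3 and Doc2a had averaged log2 fold changes between -0.13 and 0.07, none called, and Vamp1 missed the threshold narrowly with an adjusted p of 0.0504.

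Of the 10 vesicle membrane proteins, synapsins and AP180, 4 fell with housing averaged and none rose, with a median of -0.11. Sv2c, the least abundant of the SV2 proteins, which sit in the vesicle membrane and serve as receptors for botulinum toxin, showed the largest change of the 46 genes. It had 40.7, 43.4 and 34.6 CPM in control SC mice, 26.2, 20.1 and 22.2 in CBP-ifKO SC mice, 35.8, 38.5 and 40.1 in control EE mice and 17.1, 21.1 and 21.5 in CBP-ifKO EE mice. The highest CBP-ifKO stayed below the lowest control mouse. The log2 fold change was -0.79 (SE 0.11, adjusted p = 0.00179) in SC, -0.93 (SE 0.09, adjusted p = 0.000455) in EE and -0.87 (SE 0.08, adjusted p = 2.67e-06) averaged, so that it fell by 45.1%. The abundant family members moved far less, with averaged log2 fold changes of 0.05 (SE 0.03, adjusted p = 0.304) for Sv2a and -0.14 (SE 0.05, adjusted p = 0.0608) for Sv2b.

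Both major synapsins fell. Syn2 had 922, 900.4 and 895 CPM in control SC mice, 762, 782 and 763 in CBP-ifKO SC mice, 850.0, 876 and 890.2 in control EE mice and 719, 721 and 685 in CBP-ifKO EE mice. Syn1 had 666, 577 and 619 CPM in control SC mice, 555, 553 and 512 in CBP-ifKO SC mice, 625, 607 and 640.1 in control EE mice and 520.3, 527 and 507 in CBP-ifKO EE mice. Neither gene overlapped between genotypes. The averaged log2 fold changes were -0.27 (SE 0.03, adjusted p = 2.21e-05) for Syn2 and -0.24 (SE 0.04, adjusted p = 0.000678) for Syn1, and the genes fell by 17.0% and 15.0%, respectively. Exons of Syn1 overlap those of Araf, and exons of Syn2 those of Timp4, on the opposite strand, and reads of such neighbours cannot be told apart if strand was not used in counting. Syn3, at 4.67 to 8.68 CPM, had a log2 fold change of 0.03 (SE 0.17, adjusted p = 0.938).

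Syngr1, a synaptogyrin of the vesicle membrane, had 509.9, 499.9 and 476 CPM in control SC mice, 453, 453 and 439 in CBP-ifKO SC mice, 500.0, 491 and 503 in control EE mice and 421, 443 and 426 in CBP-ifKO EE mice. Its groups were apart in both housings, and it was called only with housing averaged, at -0.18 (SE 0.03, adjusted p = 0.00123). Syp, which encodes synaptophysin and is widely used as a marker of presynaptic terminals, ranged over 817 to 919 CPM in control mice and 841 to 863 CPM in CBP-ifKOs, which overlapped, with an averaged log2 fold change of -0.06 (SE 0.03, adjusted p = 0.278). Snap91, the AP180 adaptor of vesicle endocytosis, lay lower in all 6 CBP-ifKOs (449 to 454 CPM against 464 to 488), but the change of -0.07 (SE 0.03, adjusted p = 0.13) was not called. Syngr3 had an averaged log2 fold change of -0.04 (SE 0.05, adjusted p = 0.674).

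The Rab3 and active zone genes were split, with 4 of 11 lower and 1 higher when housing was averaged and a median of -0.03. Unc13a encodes Munc13-1, which primes vesicles at excitatory synapses. It had 438, 453 and 390.3 CPM in control SC mice, 398, 357 and 339 in CBP-ifKO SC mice, 388, 467 and 429 in control EE mice and 333, 373 and 319.7 in CBP-ifKO EE mice. The groups overlapped in SC and were apart in EE, and the averaged log2 fold change was -0.28 (SE 0.06, adjusted p = 0.00371). Unc13b, or Munc13-2, had 76.6, 84.7 and 85.2 CPM in control SC mice, 73.8, 72.5 and 74.8 in CBP-ifKO SC mice, 87.5, 92.7 and 90.0 in control EE mice and 68.7, 78.7 and 82.4 in CBP-ifKO EE mice, at -0.20 (SE 0.05, adjusted p = 0.00975) averaged. Exons of Unc13a overlap those of Colgalt1 on the opposite strand.

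The RIM genes diverged. Rims1, an organizer of vesicle docking and calcium channels, had 162, 199 and 174 CPM in control SC mice, 157, 158 and 152 in CBP-ifKO SC mice, 164, 187 and 169.5 in control EE mice and 158, 162 and 146 in CBP-ifKO EE mice. For Rims2, another RIM protein, the levels were 77.9, 86.3 and 75.3 CPM in control SC, 93.4, 85.8 and 91.2 in CBP-ifKO SC, 78.9, 92.5 and 77.1 in control EE and 97.9, 90.0 and 88.5 in CBP-ifKO EE mice. Rims1 was lower in each CBP-ifKO than in each control mouse of its housing, and Rims2 overlapped in both housings. The averaged log2 fold change was -0.18 (SE 0.05, adjusted p = 0.0276) for Rims1 and 0.17 (SE 0.05, adjusted p = 0.0422) for Rims2, the only gene of the set that rose. For Bsn, which encodes the scaffold Bassoon, the levels were 414, 480.1 and 398 CPM in control SC, 403, 372 and 367 in CBP-ifKO SC, 367, 458 and 386 in control EE and 348, 368 and 291 in CBP-ifKO EE mice, with overlap in both housings and an averaged change of -0.22 (SE 0.07, adjusted p = 0.032). The calls of Rims1, Rims2 and Bsn were lost when single mice were left out, with adjusted p-values up to 0.0751, 0.105 and 0.0814.

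Rab3a, the main Rab3 GTPase of hippocampal vesicles, ranged over 416 to 494 CPM in control mice and 436 to 476 CPM in CBP-ifKOs, with an averaged log2 fold change of -0.01 (SE 0.04, adjusted p = 0.862). Pclo, which encodes Piccolo, was at -0.03 (SE 0.04, adjusted p = 0.706). Rab3b, Rab3c, Rims3 and Unc13c had averaged log2 fold changes between -0.10 and 0.10, none called. Of the 12 best known genes of release, chosen as Syt1, Stx1a, Snap25, Vamp2, Syp, Syn1, Rab3a, Rims1, Bsn, Unc13a, Cplx1 and Cplx2, 7 were called with housing averaged, all lower, against 10.3% of all genes lower and 6.64% higher.

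**Figure D3:**
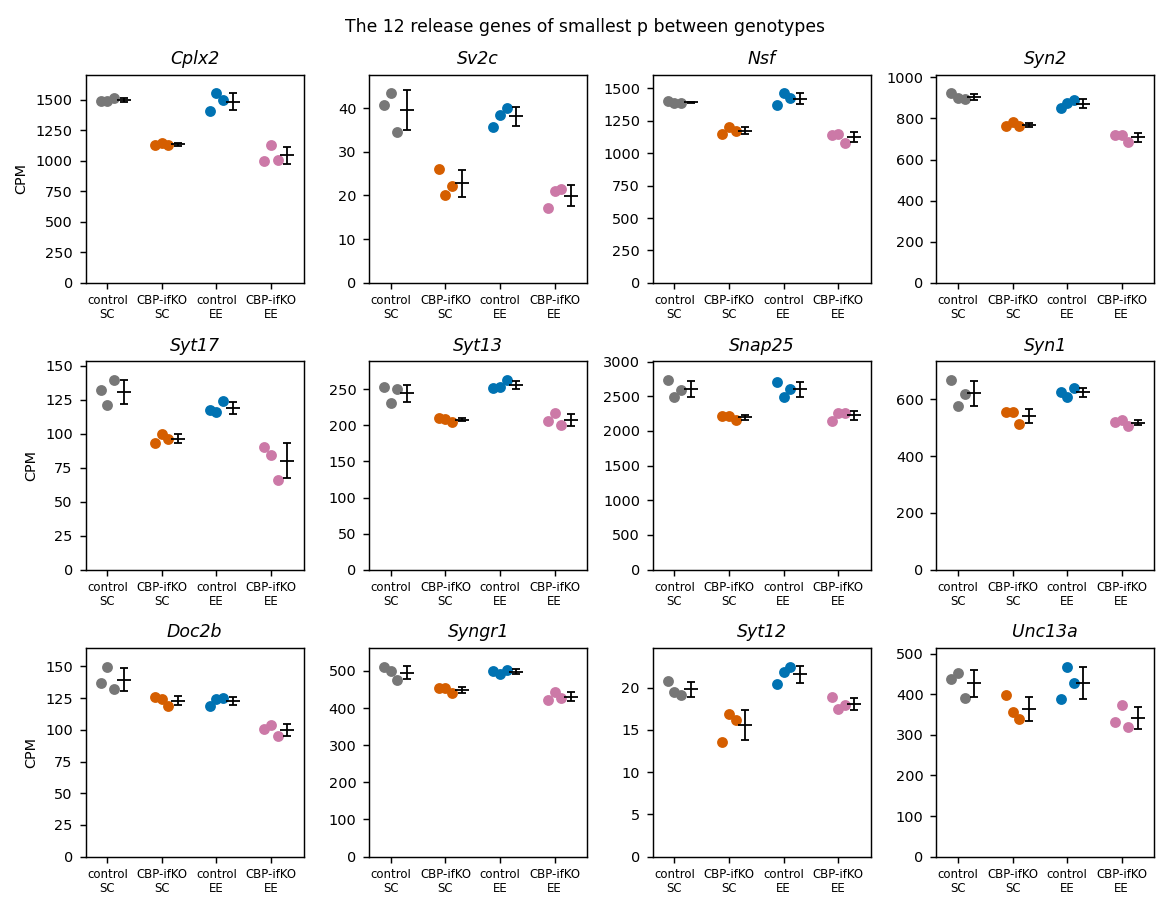
Points are CPM of the 12 release genes of smallest p between genotypes (averaged over housing), 1 point per mouse, with the mean and SD of the 3 mice beside them and axes that start at 0. In SC and in EE the CBP-ifKO points lie below the control points of the same housing for 11 of the 12 genes, the exception being Unc13a in SC, where 1 CBP-ifKO (398 CPM) lay above the lowest control mouse (390.3 CPM).

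Because each ratio is taken within a mouse, it does not depend on the scaling of libraries. The 11 pairs computed were chosen after the levels were seen and carry no test. The ratio of Cplx2 to Cplx1 in RPKM was 1.11 to 1.42 in the 6 control mice and 0.884 to 1.07 in the 6 CBP-ifKOs, and that of Sv2c to Sv2a was 0.0316 to 0.0412 against 0.0153 to 0.0231. For Snap25 over Vamp2 the ranges were 1.27 to 1.38 and 1.12 to 1.23, for Nsf over Vamp2 0.541 to 0.626 and 0.478 to 0.502, and for Syn2 over Syp 0.715 to 0.817 and 0.603 to 0.672. None of these ratios overlapped between genotypes, nor did Rims1 over Rims2, at 2.68 to 3.07 against 2.15 to 2.44. The ratio of Unc13a to Unc13b did overlap, at 7.99 to 10.3 and 6.99 to 9.71, as did that of Sv2b to Sv2a, at 0.596 to 0.731 and 0.527 to 0.638.

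**Figure D4:**
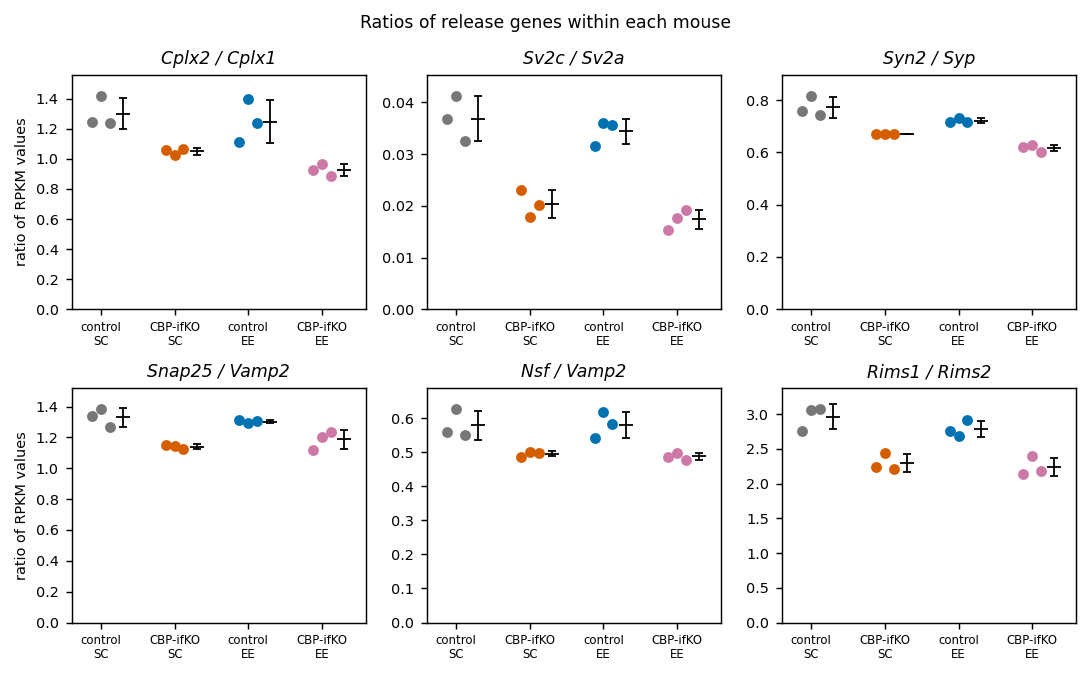
Points are ratios of RPKM values of pairs of release genes within each of the 12 mice, with the mean and SD of the 3 mice of a group beside them and axes that start at 0. In all 6 panels, which were picked from 11 pairs, every CBP-ifKO lies below every control mouse, whereas the pairs Unc13a over Unc13b and Sv2b over Sv2a, not drawn, overlapped.

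The 19 genes called with housing averaged had a median of 417 CPM in control mice (20.7 to 2603) and a median standard error of 0.04 on the log2 scale, and the other 27 had 155 CPM (1.32 to 1110.3) and 0.05, ranges that overlapped widely and were not tested. The 46 genes were spread over 18 chromosomes.

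CBP is a coactivator of CREB, which binds the cAMP response element TGACGTCA or its core TGACG, so the 250 bases before the transcription start were searched for TGACG on both strands (CGTCA on the printed strand when it lay on the other). Promoters of 33 of the 46 genes were matched in the RefSeq table. Its starts did not always match the gene annotation used here. For Cplx2, counted below as called without a core, the only window was chr13:54302306-54302555, whereas the annotated gene starts at 54371349. At least 1 core was present for 7 of these 33 (21.2%), for 2 of the 11 that were called with housing averaged (18.2%) and for 5 of the 22 that were not (22.7%), against 5347 of all 27025 genes in the table (19.8%). The full element was present for 1 of the 33 genes, Syn1, and for 1.77% of all genes. A match is a description of letters and not of binding. The sequences that follow, from RefSeq on GRCm38.p6, are those of the called genes that hold the motif, Syn1 and Unc13a, and of Sv2c, the gene with the largest change, which holds none. Each is on the minus strand of the genome, is printed 5′ to 3′ along its gene, ends before the first annotated exon and has the cores in capitals, which overlap in Syn1 to form the full element. For Syn1 only 164 of the 250 bases searched are printed, since the window (chrX:20920919-20921168) reached into the annotated gene. The positions are chrX:20921005-20921168 for Syn1, chr8:71671758-71672007 for Unc13a and chr13:96132578-96132827 for Sv2c.
Syn1: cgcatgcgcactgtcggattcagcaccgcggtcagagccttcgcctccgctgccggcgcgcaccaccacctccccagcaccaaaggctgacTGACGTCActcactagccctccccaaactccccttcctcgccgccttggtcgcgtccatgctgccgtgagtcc
Unc13a: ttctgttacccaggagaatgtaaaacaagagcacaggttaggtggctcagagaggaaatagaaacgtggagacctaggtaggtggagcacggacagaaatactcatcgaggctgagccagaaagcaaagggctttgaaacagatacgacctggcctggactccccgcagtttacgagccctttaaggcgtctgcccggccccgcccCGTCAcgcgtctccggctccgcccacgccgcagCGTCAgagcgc
Sv2c: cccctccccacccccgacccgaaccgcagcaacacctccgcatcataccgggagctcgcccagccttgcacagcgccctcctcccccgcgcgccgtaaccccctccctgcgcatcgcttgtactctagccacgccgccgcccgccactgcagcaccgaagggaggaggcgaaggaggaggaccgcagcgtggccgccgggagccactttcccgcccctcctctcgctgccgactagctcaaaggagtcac

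The second question was whether housing altered these genes within a genotype. In control mice, none of the 46 genes was called between EE and SC by edgeR's quasi-likelihood test or by DESeq2, and 2 had an unadjusted p below 0.05, with 0% of all genes called by edgeR, 0.0822% by DESeq2 and 4.21% under the unadjusted threshold. In CBP-ifKOs, none of the 46 was called by edgeR, 1 was called by DESeq2 and 6 had an unadjusted p below 0.05, with 0.011% of all genes called by edgeR, 0.296% by DESeq2 and 8.59% under the unadjusted threshold. The median log2 fold changes of EE over SC were 0.02 and -0.01. In control mice, all EE-housed mice lay below all SC-housed mice for Syt4, Doc2b and Syn2 and above them for Unc13b, while 4.91% and 4.2% of all genes did so. In CBP-ifKOs they lay below for Syt7, Syt17, Doc2b and Syn2 and above for Syt12 and Rab3a, while 8.18% and 7.69% of all genes did so.

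Doc2b had the smallest p for housing in both genotypes. From SC to EE it went from 137, 149 and 132 CPM to 119, 124 and 125 in control mice, and from 126, 124 and 119 CPM to 101, 104 and 94.9 in CBP-ifKOs, so that all EE-housed mice lay below all SC-housed mice of the same genotype. The log2 fold changes were -0.18 (SE 0.06, adjusted p = 0.999), the largest that was not called in control mice, and -0.30 (SE 0.06, adjusted p = 0.121), with 0.00635 and 8.92e-05 as the unadjusted p-values from edgeR. In CBP-ifKOs its adjusted p was 0.000881 by DESeq2, 0.00202 without a filter on low counts, 0.0342 with only the 6 CBP-ifKOs in the fit and 0.0477 with the replicate number as a block, so whether it passed depended on the procedure. In control mice it was 0.535 or higher in each of the alternatives run.

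The other genes with an unadjusted p below 0.05 for housing were Syt4 in control mice (-0.17, SE 0.06), and Syt7 (-0.19, SE 0.06), Syt12 (0.22, SE 0.08), Syt17 (-0.26, SE 0.09), Cplx2 (-0.12, SE 0.05) and Syn2 (-0.12, SE 0.04) in CBP-ifKOs, all with adjusted p-values of 0.121 or above. Syt4 encodes an activity-regulated synaptotagmin of dense-core vesicles. It had 242, 228 and 254 CPM in control SC mice and 225, 214 and 204 in control EE mice, whereas in CBP-ifKOs the housings overlapped, at 229, 239.8 and 242 CPM in SC and 238, 205 and 222 in EE. The largest change in CBP-ifKOs that was not called was that of Cplx3, a complexin of low level here, at 0.36 (SE 0.31, adjusted p = 0.777), on 9.20, 4.01 and 3.65 CPM in SC and 6.66, 6.67 and 8.28 in EE.

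**Figure D5:**
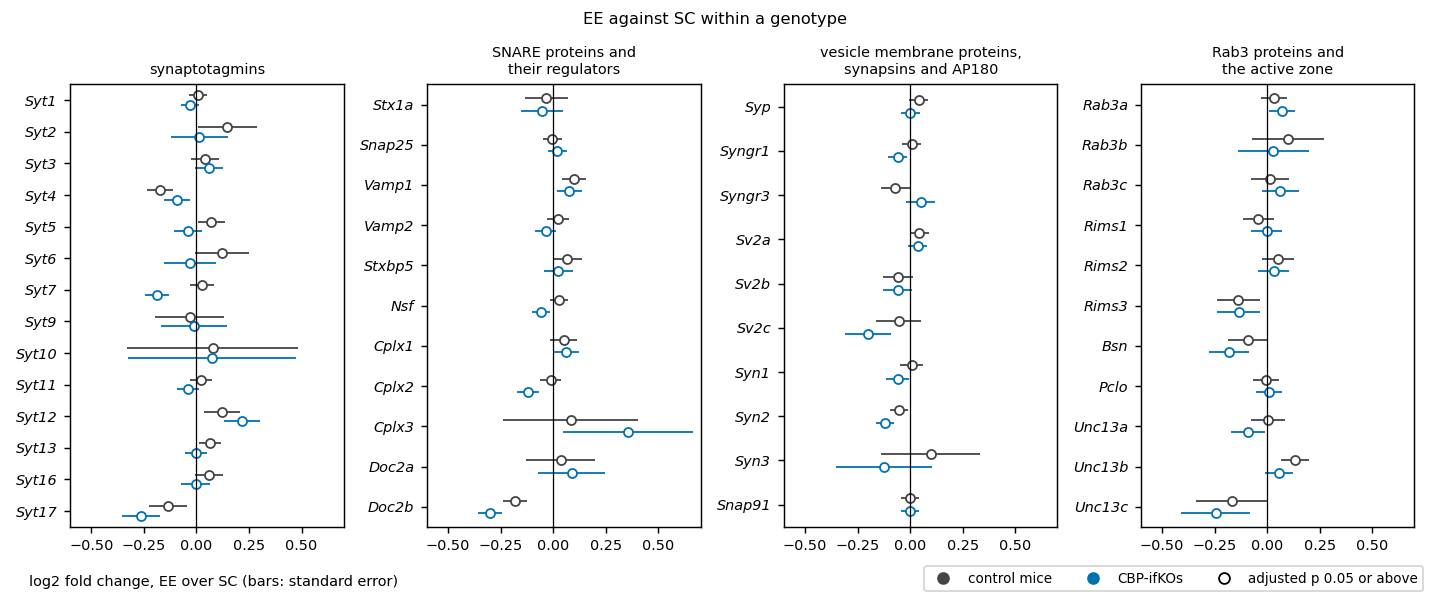
Points are log2 fold changes of EE over SC for each gene in control mice (grey) and in CBP-ifKOs (blue), with bars of 1 standard error. No point is filled, since no adjusted p-value of edgeR's quasi-likelihood test was below 0.05, and Doc2b lies left of 0 in both genotypes.

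The third question was whether the effect of CBP loss differed between the housings. For none of the 46 genes did the interaction of genotype and housing pass edgeR's quasi-likelihood test or DESeq2, and 0% of all genes did by either. Only Syt7, described above, had an unadjusted p below 0.05, against 3.15% of all genes. The median interaction was -0.04 over the 46 genes and -0.01 over all genes, and 32 of the 46 had a negative value, against 51.8% of all genes, that is, a lower log2 fold change between genotypes in EE than in SC. Cplx3 had the largest value, 0.27 (SE 0.45, adjusted p = 1). For the genes of the clearest genotype change, the interactions were -0.11 (SE 0.07) for Cplx2, -0.15 (SE 0.15) for Sv2c, -0.09 (SE 0.06) for Nsf and -0.13 (SE 0.13) for Syt17, each within 2 standard errors of 0.

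A further list of 97 genes of vesicle fusion, filling, active zone and endocytosis, of which 91 were tested, was examined beside the 46. In SC 3 fell and 1 rose and in EE 3 fell and 1 rose, shares near those of all genes (4.02% and 3.53% lower, 1.51% and 1.03% higher). With housing averaged 22 fell and 3 rose, against 10.3% and 6.64% of all genes, with a median log2 fold change of -0.08. Apba2, which encodes the presynaptic adaptor Mint2, fell with 215, 223 and 205 CPM in control SC mice against 178, 179.5 and 179 in CBP-ifKO SC mice, and 212, 227 and 226 CPM in control EE mice against 165, 164 and 164 in CBP-ifKO EE mice (-0.35, SE 0.03, adjusted p = 7.45e-06). Stxbp2, or Munc18-2, a partner of syntaxins that acts mainly outside neurons, rose at 0.42 (SE 0.06, adjusted p = 9.72e-05), and Stxbp6 (amisyn), an inhibitor of SNARE assembly, fell at -0.38 (SE 0.05, adjusted p = 0.000228). By edgeR's test, no gene of the list was called for housing or for the interaction.

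Levels of several marker lists of cell types differed with genotype. The summed CPM of 7 CA1 pyramidal cell markers was 747 to 865 in control mice and 574 to 599 in CBP-ifKOs, that of 7 CA2 markers 264 to 293 and 166 to 185, that of 6 mossy cell markers 88.7 to 104 and 58.3 to 74.5, and that of 15 interneuron markers 1770 to 1888 and 1617 to 1707. With housing averaged, 5 of 7, 4 of 7, 3 of 6 and 2 of 15 of these markers fell in edgeR's test, and 1 interneuron marker rose, against 10.3% of all genes lower and 6.64% higher, so that the share of interneuron markers was near that of all genes. For 5 markers of oligodendrocyte precursors, cells without Cre, the sums were 147 to 170 and 118 to 136 CPM, and 4 of the 5 fell. The sums of 9 dentate granule cell markers (658 to 788 and 598 to 693), 8 CA3 markers (680.3 to 830.1 and 567 to 796), 9 astrocyte markers (4365 to 5124 and 3992 to 4475), 8 microglial markers and 8 vascular markers overlapped, with 5, 4, 4, 2 and 2 markers lower and 1 granule cell marker higher, and none of 9 oligodendrocyte markers was called. The sums of 9 pan-neuronal markers (11428 to 13617 and 11299 to 13123) and of 6 excitatory neuron markers (5615 to 6163 and 5284 to 6059) overlapped between genotypes, although 6 of 9 pan-neuronal markers fell, while the 1 of 6 excitatory markers that fell was a share near that of all genes. None of these markers was at 0 in all mice, and the part of these shifts in the changes of the release genes was not tested.

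Single mice weighed on the counts, and the calls over all genes moved with them. Left out in turn, replicates 1, 2 and 3 of the CBP-ifKOs in SC left 3, 4 and 3 genes called there, with 404, 399 and 433 over all genes in place of 968. Leaving out replicate 2 of the control SC mice gave 11, of which Rims2 was higher, with 1908 over all genes. In EE, 3 genes were called without control replicate 3, 9 without control replicate 1, the mouse with choroid plexus RNA, and 5, 7 and 4 without CBP-ifKO replicates 1, 2 and 3, with 285, 701, 431, 447 and 286 over all genes in place of 805. Syt17, Cplx2 and Sv2c were called in SC, and Nsf, Cplx2 and Sv2c in EE, in each of the 14 alternatives run. With housing averaged, 12 genes were called in each of 19 alternatives, namely Syt12, Syt13, Syt17, Snap25, Nsf, Cplx2, Doc2b, Syngr1, Sv2c, Syn1, Syn2 and Unc13a, and Unc13b missed the threshold without TMM factors only (adjusted p 0.0512 in edgeR's test). Replicate 2 of the control mice had the highest level of its group in both housings for 13 of the 46 genes, among them Bsn, Pclo, Rims1, Rims2 and Unc13a, whose exons had a median length of 10389 bases, and the lowest for 13 others, among them Snap25, Vamp2, Cplx1, Rab3a and Syn1, with a median of 3118 bases, and the cause was not tested.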

How the data were processed

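RNA-seq libraries of 12 mice, each sequenced in 2 runs of 50 bp single-end reads, were analyzed. The authors trimmed the reads with Trim Galore 0.6.4 after FastQC 0.11.8, aligned them with STAR 2.6.1 to mm10 (GRCm38) and counted reads on exons with Rsubread. Raw counts for every gene, with the runs of a mouse merged, were deposited beside the gene length in bases, which the deposited table lists and which was used for RPKM only. The strand setting is not given in the sources used here. Of 55471 genes, 55144 were matched to a symbol. Positions and overlaps were taken from the GENCODE M21 annotation of GRCm38.

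Counts were tested with edgeR 4.0.16 in R 4.3.3 (expression filter, TMM, quasi-likelihood F test, Benjamini-Hochberg adjustment over all genes tested, threshold 0.05). Genotypes were compared in 6 mice per housing (17532 and 17625 genes) and averaged over housing in 12 mice (18251 genes), where housing effects and the interaction were also tested. DESeq2 1.42.0, DESeq2's size factors, other filters, CBP-ifKO counts divided by 2, library totals without TMM factors (added after the data were seen), a fit blocked by replicate number, fits on fewer or more mice, and leaving out each mouse were the alternatives. The procedures were tested on simulated data. For a single gene, 3 mice against 3 cannot give an exact two-sided permutation p below 0.1.

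The members, the lists and the tests were chosen with earlier results of these data known. Values in every mouse are given for each gene called in any comparison, ranges for 12 core genes, and values for the largest uncalled change in each comparison. From the further list of release genes, at most 3 of the smallest p per comparison are named in the report, and further genes named in the closing section were picked after their values were seen.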

Additional observations from a re-analysis of the deposited data

How the results depend on the processing

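With no filter on low counts, 12 of the 46 genes were called between genotypes in SC in place of 7. Between housings in CBP-ifKOs, 2 were called (Doc2b and Syt17) in place of 0. Over all genes, the calls in SC and EE went from 968 of 17532 and 805 of 17625 to 1512 of 32372 and 1677 of 32641. Those for housing in CBP-ifKOs went from 2 of 18251 to 247 of 35081. With DESeq2 the all-gene calls in SC and EE were 1300 of 17532 and 1296 of 17625. For housing in CBP-ifKOs, DESeq2, the replicate block and the fit of the 6 mice of that genotype each gave 1 call, Doc2b. Leaving out each mouse in turn gave 3 to 11 calls in SC, 3 to 13 in EE and 13 to 19 with housing averaged. Over all genes the calls were 399 to 1908, 285 to 1016 and 2459 to 3294 under these omissions. The median log2 fold change of the 46 genes in SC lay between -0.11 and -0.068, the latter without replicate 1 of the control SC mice. The interaction of Cplx3 turned to -0.022 without replicate 2 of the control EE mice and lay between that and 0.83 without other single mice. For the averaged comparison the call of Syt1 was lost without any of 7 mice, those of Syt5 and Rims2 without any of 9, that of Rims1 without any of 6, that of Bsn without any of 5, and that of Syt7 without replicate 3 of the CBP-ifKO SC mice (adjusted p 0.05). With library totals in place of TMM factors, the members' medians were -0.044 in SC, -0.045 in EE and -0.033 averaged, and 6, 7 and 15 were called. The medians over all genes were 0.049, 0.080 and 0.066. Of all genes, 1087 of 17532, 949 of 17625 and 4212 of 18251 were called, with 607, 524 and 2937 higher. This alternative was added after the data were seen. Over the called genes and the largest uncalled change of each comparison, 613 values under single alternatives kept their side of the threshold, 89 lost it, 4 passed it and 1 changed sign, and the causes were not tested. Same-numbered control mice of SC and EE deviated together (correlations 0.19, 0.30 and 0.03), but those of the CBP-ifKOs did not (-0.04, 0.09 and -0.05), and the correlations of control with CBP-ifKO mice were 0.07, -0.05 and 0.10 in SC and 0.11, 0.12 and 0.03 in EE, so the numbers were not taken to pair the mice. With the replicate block, 8 of the 46 genes were called in SC, 11 in EE, 21 averaged over housing, 1 for housing in CBP-ifKOs, 0 for housing in control mice and 0 for the interaction, and over all genes 1041, 1089 and 3374 in the genotype comparisons. The low-level genes Syt10, Cplx3 and Syn3 had the largest standard errors of the averaged change, 0.28, 0.22 and 0.17.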

Other observations

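Slc17a6, the vesicular glutamate transporter VGLUT2, was among the 3 genes of the further list that rose with housing averaged (0.47, SE 0.14, adjusted p = 0.0274), beside Stxbp2 and Rab3gap1 (0.12, SE 0.03, adjusted p = 0.0251). Of the 29 endocytosis genes of that list, 9 fell and none rose with housing averaged, against 10.3% of all genes falling, while 1 was called in SC and 0 in EE, against 4.02% and 3.53% of all genes lower. An unadjusted p below 0.05 in edgeR's test was found for 7 and 8 of the 29, against 20.5% and 19.6% of all genes. The 3 of smallest p were Sh3gl2 (an endophilin, -0.19, SE 0.04, adjusted p = 0.00167), Pacsin1 (a syndapin, -0.20, SE 0.04, adjusted p = 0.00142) and Amph (amphiphysin, -0.17, SE 0.03, adjusted p = 0.00269), all adjusted p-values being from edgeR's test over all genes. Slc17a6, Rab3gap1 and the endocytosis genes were picked after their values were seen.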
